A study of Mus musculus with 4 samples.

Results

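Keratins and the proteins of epithelial junctions were followed in 2 mouse tumour cell lines that had lost Smarcb1, a core protein of the SWI/SNF chromatin remodellers, and in which Smarcb1 was put back. The set was given by name and holds 10 genes out of 19938 with a single-symbol probe set: the keratins Krt7, Krt8, Krt18 and Krt19, the adhesion molecules Cdh1, Epcam and F11r, and the junction plaque genes Dsp, Jup and Tjp1. Line 365 and line 167 each received Smarcb1 in the pMIG retroviral vector or, as control, that vector without insert (empty vector). Total RNA of day 3 after infection went onto whole-transcript arrays, 1 for each of the 4 combinations. The labelled genotype of both lines is Smarcb1 deficient and p53 null, the Smarcb1 arrays carrying Smarcb1 from the vector, on a mixed C57BL6/SV129J background, and both come from soft tissue tumours of p53-/- mice that started with 1 working Smarcb1 allele. Each line stands for a single tumour, and the labels do not say whether infected cells were sorted before extraction.

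Keratins build the intermediate filaments of epithelial cells from pairs of a type I protein (Krt18, Krt19) and a type II protein (Krt7, Krt8). Desmosomes tie these filaments to the cell border through desmoplakin (Dsp) and plakoglobin (Jup), and adherens junctions are built around E-cadherin (Cdh1). Tight junctions include, among other proteins, junctional adhesion molecule A (F11r) and the scaffold ZO-1 (Tjp1). Rhabdoid tumours, the human cancers that lack SMARCB1, are known to stain for simple keratins and vimentin in the same cells, so these genes bear on the mixed character of Smarcb1-deficient tumours.

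All values are log2 signals after the robust multi-array average (RMA), and a difference of 1 is a doubling. The Smarcb1 signal checked the labels: it was 9.61 and 7.83 on the Smarcb1 arrays of lines 365 and 167, against 6.01 and 4.61 on their empty vector arrays. The 6.01 of the line 365 control was above the median of all genes on that array (5.58), and its source was not tested. A signal was called near background below 4.27, the 30th percentile of the gene means and the level of the filter. For comparison, 1194 olfactory and vomeronasal receptor genes, taken as silent in these cells, had a 95th percentile between 4.20 and 4.26 on the 4 arrays. Of the 10 genes, 8 passed the filter and were tested among 13956 genes. The soft tissue label was read beside 10 mesenchymal markers, of which 2 (Lum and Fap) lay below 4.27 on all 4 arrays. Vimentin (Vim) stood at 13.4 and 13.3 on the Smarcb1 and empty vector arrays of line 365 and at 13.3 and 13.5 on those of line 167. Pdgfra stood at 8.69 and 8.77 in line 365 and 9.47 and 8.50 in line 167. Other mesenchymal genes differed between the lines, with 3 of 8 tested (Col3a1, Pdgfrb and Col1a2) lower in line 365 in limma's test, which called 10.9% of all tested genes in either direction. Col3a1 stood at 6.24 and 6.14 on the Smarcb1 and empty vector arrays of line 365, against 11.6 and 11.1 on those of line 167. Pdgfrb stood at 5.03 and 5.12 in line 365 and 9.36 and 8.95 in line 167, and Col1a2 at 5.75 and 5.75 in line 365 and 8.76 and 7.02 in line 167. Col1a1 did not pass (limma adjusted p = 0.0559), at 6.41 and 6.38 in line 365 and 10.6 and 7.91 in line 167. The median line difference of the 8 was -1.25, against -0.016 for all tested genes, and their median difference between the vectors was 0.061 in line 365 and 1.13 in line 167. The part of these markers in the keratin and junction differences was not tested.

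Only part of the set had signals well above background in these lines. Whether those signals reflect an epithelial character of the cells was not tested. Epcam, an adhesion molecule found on most simple epithelia, lay between 3.79 and 4.09 and below the filter level on 4 of 4 arrays. Krt7 also lay below it on 4 of 4 arrays, between 3.81 and 4.25. Cdh1, the defining cadherin of epithelia, was barely above the receptor genes at 4.57 to 4.77, and Dsp at 4.37 to 4.71. Krt8, Krt18, Krt19, Jup and Tjp1 were above the filter level on every array, and F11r on 3 of 4. Krt18, at 5.25 to 5.64, lay around or below the median of all genes, which was 5.58 to 5.74 on the 4 arrays. The simple keratins Krt8, Krt18 and Krt19 and the plaque genes Jup and Tjp1 were thus measured where Epcam and Krt7 were near background and Cdh1 and Dsp little above it. On the line 167 empty vector array, however, Krt19 stood at 4.67, within the range of Cdh1.

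**Figure D1:**
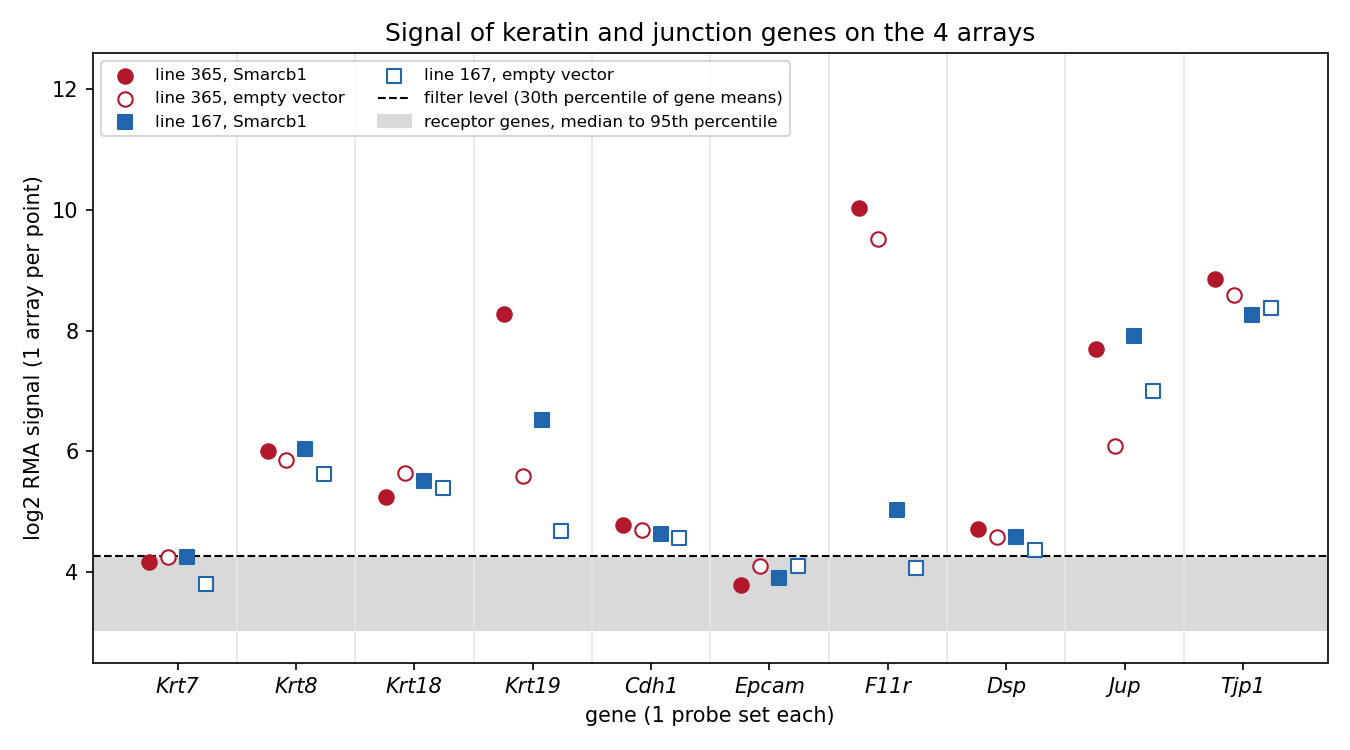
Signal of the 10 genes on each array, 1 probe set per gene, as log2 RMA values. Red circles are line 365 and blue squares line 167, filled for Smarcb1 and open for empty vector, with the filter level (4.27) dashed and the receptor gene range shaded. F11r separates the lines, Krt19 and Jup separate the vectors within each line, and Krt7 and Epcam lie below the dashed line on all arrays.

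Promoter sequences are shown for the genes that differed most among those with an entry, F11r between the lines and Jup between the vectors, and for the keratin partners Krt8 and Krt18. Entries were found for 8 of the 10 genes, and for Krt19 and Cdh1 none was used. Each run covers the 250 bases before the RefSeq start on build GRCm38.p6, 5′ to 3′ along the gene, with capitals on CACCTG or CAGGTG, the letters of the E-box that repressors of the Snail and ZEB families are known to bind in E-cadherin promoters.
F11r (chr1:171437311-171437560, plus strand): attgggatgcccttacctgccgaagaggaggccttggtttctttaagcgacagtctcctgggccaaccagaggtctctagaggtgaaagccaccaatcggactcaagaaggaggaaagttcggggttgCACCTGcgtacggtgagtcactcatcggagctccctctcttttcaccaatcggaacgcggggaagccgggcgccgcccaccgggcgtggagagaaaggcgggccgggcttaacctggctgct
Jup (chr11:100397791-100398040, minus strand): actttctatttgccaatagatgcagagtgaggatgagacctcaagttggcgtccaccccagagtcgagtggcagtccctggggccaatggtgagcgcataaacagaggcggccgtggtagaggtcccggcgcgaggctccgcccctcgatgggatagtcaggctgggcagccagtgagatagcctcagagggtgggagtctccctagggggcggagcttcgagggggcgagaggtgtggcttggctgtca
Krt8 (chr15:102004343-102004592, minus strand): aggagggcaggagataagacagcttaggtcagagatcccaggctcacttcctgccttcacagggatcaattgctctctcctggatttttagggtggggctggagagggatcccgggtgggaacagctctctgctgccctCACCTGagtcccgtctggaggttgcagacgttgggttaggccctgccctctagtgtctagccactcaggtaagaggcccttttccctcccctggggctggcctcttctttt
Krt18 (chr15:102027966-102028215, plus strand): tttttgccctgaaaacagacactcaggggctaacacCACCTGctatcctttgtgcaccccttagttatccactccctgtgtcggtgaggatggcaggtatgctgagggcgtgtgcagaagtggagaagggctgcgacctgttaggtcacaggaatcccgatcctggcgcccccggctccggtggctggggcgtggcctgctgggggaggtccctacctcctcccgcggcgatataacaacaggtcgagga
The E-box letters, searched on both strands as CACCTG and its reverse complement CAGGTG, were in 5 of the 8 promoters of the set (F11r, Krt7, Krt8, Krt18 and Epcam) and in 17.2% of 32851 promoter windows of the same length. Neither Jup, Dsp nor Tjp1 held them. In F11r the E-box began 122 bases before the start, and in Krt8 and Krt18 it began 111 and 214 bases before it. The letters TGANTCA, the core of AP-1 sites, were in 1 of the 8, F11r, as TGAGTCA at 109 bases before the start, and in 6.75% of all windows. The letters GGGCGG or CCGCCC, bound by SP1 family factors, were in 6 of the 8 and in 32.7% of all windows. Guanine and cytosine made up 60% of the F11r window and 62.0% of the Jup window, with 17 and 13 CG pairs, where the median window had 52.4% and 6.0. Such matches describe the letters and not binding.

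Krt19, the smallest keratin and a partner of type II keratins in simple epithelia, had the largest difference between the vectors among the 10 genes. It stood at 8.27 and 6.52 on the Smarcb1 arrays of lines 365 and 167, against 5.59 and 4.67 on the empty vector arrays. Both Smarcb1 arrays lay above both empty vector arrays, and the order from high to low was line 365 with Smarcb1, line 167 with Smarcb1, line 365 with empty vector and line 167 with empty vector. The difference was 2.68 in line 365 and 1.85 in line 167, with a mean of 2.26 ± 0.27 (moderated SE, n = 2 lines), or 4.8-fold. The line 167 control, at 4.67, was little above the receptor genes, so the size in that line and of the mean is uncertain. In limma's test over all tested genes Krt19 did not pass, with adjusted p = 0.0891. It passed when the filter was taken away (adjusted p = 0.0497) and when the filter was set at the 50th percentile (adjusted p = 0.0318), so the call rests on where the filter stands.

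The other 3 keratins had smaller differences between the vectors. Krt8, the main type II keratin of simple epithelia, was at 6.01 and 6.04 on the Smarcb1 arrays of lines 365 and 167, against 5.86 and 5.63 on the empty vector arrays. Its mean difference was 0.28 ± 0.19 (moderated SE, n = 2 lines), with limma adjusted p = 0.619. Krt18, the type I partner of Krt8, was at 5.25 and 5.51 on the Smarcb1 arrays, against 5.64 and 5.39 on the empty vector arrays, so that the vector groups overlapped. Its difference was -0.39 in line 365 and 0.12 in line 167 (limma adjusted p = 0.832 for the mean). Krt7 was at 4.17 and 4.25 on the Smarcb1 arrays, against 4.25 and 3.81 on the empty vector arrays, all near background and not tested.

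Krt8 and Krt18 are next to each other among the protein-coding genes of chromosome 15, and Krt19 lies in the type I cluster of chromosome 11 beside Krt15. Of 16 other keratin genes, 9 are on chromosome 11 with Krt19, and their differences between the vectors lay between -0.19 and 0.091 in line 365 and between -0.019 and 0.45 in line 167. None of the 16 exceeded a signal of 5.46 (Krt80), and 6 lay below 4.27 on all 4 arrays. Krt80, at 5.37 to 5.46, was at the level of Krt18. Of the 7 tested, 0 passed limma's test in either direction (0.0645% of all tested genes) and 0 had an unadjusted p below 0.05 (11.6% of all tested genes). Their median difference was -0.00017 in line 365 and 0.056 in line 167, where all tested genes had -0.0059 and -0.055. The smallest p belonged to Krt5, the basal type II keratin (0.29 in line 365 and 0.16 in line 167), Krt79 (-0.26 and -0.17) and Krt13 (0.0030 and 0.20), with limma adjusted p between 0.606 and 0.823.

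Jup, which encodes plakoglobin, the armadillo-repeat protein shared by desmosomes and adherens junctions, was the other gene of the set with a mean difference above 2-fold. It stood at 7.70 and 7.91 on the Smarcb1 arrays of lines 365 and 167, against 6.09 and 7.0 on the empty vector arrays. Both Smarcb1 arrays lay above both empty vector arrays, and the 2 Smarcb1 arrays were closer to each other than the 2 empty vector arrays. The difference was 1.61 in line 365 and 0.91 in line 167, and the mean of 1.26 ± 0.24 (moderated SE, n = 2 lines), or 2.40-fold, did not pass (limma adjusted p = 0.189). Dsp, which links plakoglobin to keratin filaments, differed by 0.13 in line 365 and 0.21 in line 167 (limma adjusted p = 0.685) at signals close to background. Tjp1, the scaffold under tight junctions, had 8.86 and 8.26 on the Smarcb1 arrays and 8.59 and 8.37 on the empty vector arrays of lines 365 and 167, and its difference was 0.27 in line 365 and -0.11 in line 167 (limma adjusted p = 0.894).

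Of the adhesion molecules, F11r was higher with Smarcb1 in both lines. It stood at 10.0 and 5.03 on the Smarcb1 arrays of lines 365 and 167, against 9.51 and 4.07 on their empty vector arrays, so the gap between the lines was far wider than that between the vectors. The difference between the vectors was 0.53 in line 365 and 0.97 in line 167, with a mean of 0.75 ± 0.21 (moderated SE, n = 2 lines) and limma adjusted p = 0.307. The line 167 control lay below 4.27, so the size of the difference in that line is uncertain. Cdh1 differed by 0.076 in line 365 and 0.059 in line 167 (limma adjusted p = 0.887), and Epcam, untested, by -0.31 and -0.19.

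Counted over the set, limma's test of Smarcb1 against empty vector called 0 of the 8 tested genes in either direction, and over all tested genes it called 9 as higher, 0.0645%, and 0 as lower, 0%. At an unadjusted p below 0.05 there were 3 of the 8 (Krt19, Jup and F11r), where all tested genes gave 11.6%. Signals were higher with Smarcb1 in both lines for 6 of the 8 (26% of all tested genes) and lower in both for 0 of the 8 (34.1%). Both Smarcb1 arrays lay above both empty vector arrays for 3 of the 8 (Krt19, Krt8 and Jup; 13.6% of all tested genes), and the reverse held for 0 of the 8 (15.5%). Among the genes that were not tested, Epcam was lower in both lines and Krt7 was lower in line 365 and higher in line 167. The median difference over the 10 genes was 0.14 in line 365 and 0.31 in line 167, against -0.0059 and -0.055 for all tested genes. With 8 tested genes, of which Cdh1 and Dsp lie close to background, these shares are a description.

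**Figure D2:**
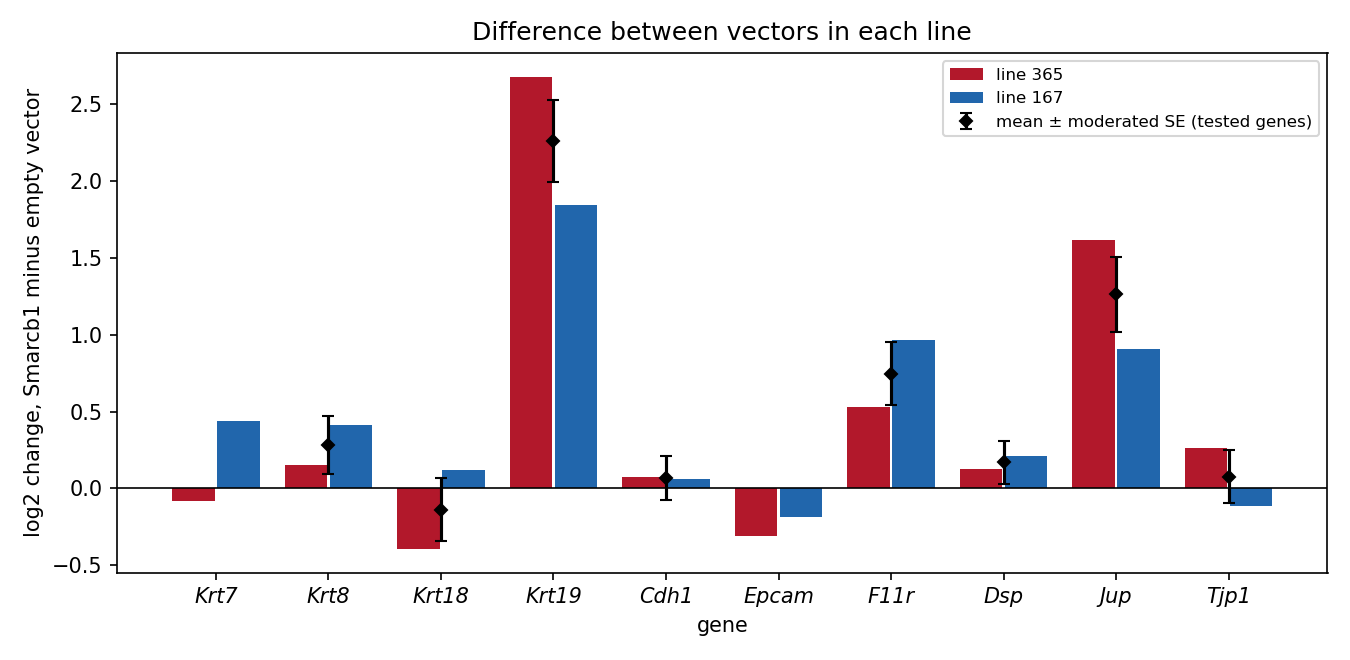
Log2 difference, Smarcb1 minus empty vector, for each gene in line 365 (red bars) and line 167 (blue bars), each from 1 array per vector. Black diamonds give the mean with its moderated SE for the 8 tested genes. Krt19 (2.68 and 1.85) and Jup (1.61 and 0.91) extend furthest, and Krt7, Krt18 and Tjp1 point in opposite directions in the 2 lines.

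Between the lines, 2 of the 8 tested genes passed limma's test, both higher in line 365, where the test called 10.9% of all tested genes, 5.31% as higher in line 365 and 5.64% as lower. The same 2 genes had an unadjusted p below 0.05, as had 30.8% of all tested genes. F11r, which encodes a tight junction molecule also found on endothelium, platelets and leukocytes, had 10.0 and 9.51 on the Smarcb1 and empty vector arrays of line 365, against 5.03 and 4.07 on those of line 167. The difference was 5.0 on the Smarcb1 arrays and 5.45 on the empty vector arrays, with a mean of 5.23 ± 0.21 (moderated SE, n = 2 vectors, limma adjusted p = 0.00231). The size and its error are uncertain, because 1 of the 2 line 167 arrays, that with empty vector, was near background. F11r was the widest gap between the lines in the set and was present whichever vector the cells carried.

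Krt19 was the other gene that passed, with 8.27 and 5.59 on the Smarcb1 and empty vector arrays of line 365, against 6.52 and 4.67 on those of line 167. The difference was 1.75 on the Smarcb1 arrays and 0.92 on the empty vector arrays (mean 1.33 ± 0.27, moderated SE, n = 2 vectors, limma adjusted p = 0.0471). The size on the empty vector arrays is uncertain, because the line 167 signal there was little above background. The arrays of the lines overlapped, and the call ended without the intensity trend (adjusted p = 0.0511) and without the vector in the model (adjusted p = 0.512). Smarcb1 itself was also higher in line 365, by 1.78 on the Smarcb1 arrays and 1.4 on the empty vector arrays, and its part in the Krt19 difference was not tested.

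The remaining genes did not separate the lines in the test. Jup was lower in line 365, by 0.21 on the Smarcb1 arrays and 0.91 on the empty vector arrays, with a mean of -0.56 ± 0.24 (moderated SE, n = 2 vectors, limma adjusted p = 0.202). Tjp1 was higher in line 365 by 0.59 and 0.22 (limma adjusted p = 0.197). Krt8, Krt18, Cdh1 and Dsp had mean differences between -0.0060 (Krt18) and 0.18 (Dsp), with limma adjusted p of 0.466 or more, and the sign for Krt18 turned after either renormalization. Both line 365 arrays lay above both line 167 arrays for 4 of the 8 (F11r, Tjp1, Cdh1 and Dsp; 26.7% of all tested genes), and 0 of the 8 showed the reverse (29.1%).

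**Figure D3:**
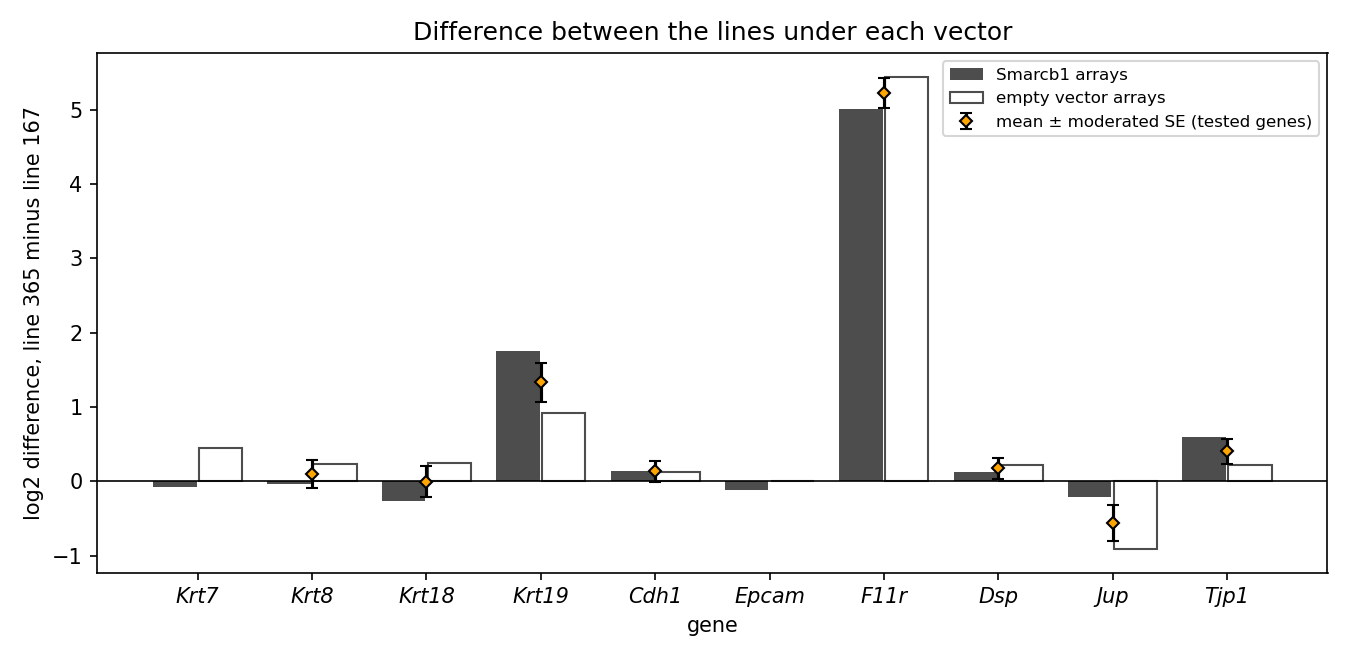
Log2 difference, line 365 minus line 167, on the Smarcb1 arrays (grey bars) and on the empty vector arrays (white bars), with the mean and its moderated SE (diamonds) for the 8 tested genes. F11r stands at 5.0 and 5.45 and Krt19 at 1.75 and 0.92, and Jup is the gene with both bars below 0 and a mean of -0.56.

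Markers of cells other than epithelium were read beside these genes, since F11r, Jup and Tjp1 are also made by endothelium and simple keratins by mesothelium. Of 7 endothelial markers, Cdh5, the cadherin of vascular endothelium, stood at 8.29 and 9.06 on the Smarcb1 and empty vector arrays of line 365, against 3.64 and 3.78 on those of line 167. The 6 other endothelial markers, Pecam1, Tek, Kdr, Emcn, Tie1 and Cldn5, lay between 3.19 and 4.8 on all arrays, with Tek and Emcn below 4.27 on all 4. The summed linear signal of the 7 was 432 and 651 in line 365 and 123 and 119 in line 167, for Smarcb1 and empty vector. In line 365 most of that sum was Cdh5 alone. Cdh5 was below 4.27 on both line 167 arrays and passed the filter through line 365 alone, so no test of it is given. It was high in the same line as F11r, and its part in that difference was not tested.

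Of 7 mesothelial markers, mesothelin (Msln) stood at 11.3 and 11.9 on the Smarcb1 and empty vector arrays of line 365, against 9.27 and 10.1 on those of line 167. It was higher in line 365 (limma adjusted p = 0.00444), and 0.54 lower with Smarcb1 in line 365 and 0.82 lower in line 167 (limma adjusted p = 0.177), while Krt19 was higher with Smarcb1 in both. The 6 others, Wt1, Upk3b, Upk1b, Lrrn4, Muc16 and Bnc1, lay between 2.79 and 5.43, and Muc16 and Bnc1 were below 4.27 on all 4 arrays. The summed linear signal of the 7 was 2691 and 3852 in line 365 and 738 and 1193 in line 167, for Smarcb1 and empty vector, and most of it was Msln alone. Of 6 leukocyte markers matched, Ptprc, Itgam and Adgre1 lay below 4.27 on all 4 arrays, and Csf1r and Cd3e between 4.70 and 5.22. Cd68, a lysosomal protein gene, stood at 8.18 and 8.69 on the Smarcb1 arrays of lines 365 and 167, against 9.95 and 9.32 on the empty vector arrays. The summed linear signal of the 6 was 401 and 512, against 1095 and 735, and most of it was Cd68 alone. The melanocyte and Schwann cell markers Sox10, Pmel and Mlana, 3 of 5 listed, lay between 4.66 and 5.20. The parts of these markers in the keratin and junction values were not tested. In bulk RNA, a higher signal from more cells that make a transcript and from more transcript per cell cannot be told apart.

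Wider lists of junction and epithelial genes placed the set among its partners. In the desmosome list, 7 of 11 matched genes were tested and 0 passed between the vectors, with 2 at an unadjusted p below 0.05 (11.6% of all tested genes, the share against which the counts of the other lists are also read). Of the 11, 4 lay below 4.27 on all 4 arrays. The median difference of the 7 was -0.084 in line 365 and 0.20 in line 167. Ppl, which encodes the plakin periplakin, was at 6.23 and 7.10 on the Smarcb1 arrays of lines 365 and 167, against 4.99 and 5.24 on the empty vector arrays. Both Smarcb1 arrays lay above both empty vector arrays, by 1.24 in line 365 and 1.87 in line 167 (limma adjusted p = 0.125). Pkp2, the plakophilin that anchors desmoplakin, was 0.78 lower in line 365 and 0.41 lower in line 167 (limma adjusted p = 0.316). Pkp1, another plakophilin, differed by 0.14 and 0.30, with both empty vector arrays below the filter level. It passed the filter through the Smarcb1 arrays alone, so no test of it is given. Between the lines Pkp2 was lower in line 365, by 1.28 on the Smarcb1 arrays and 0.91 on the empty vector arrays (limma adjusted p = 0.0274). It was the 1 desmosome gene of the 7 tested that passed, where 10.9% of all tested genes did. That call ended without the vector in the model (adjusted p = 0.127).

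Of 28 matched tight junction and polarity genes, 22 were tested, 6 lay below 4.27 on all 4 arrays, and 0 passed between the vectors, with 3 at an unadjusted p below 0.05. Jam2, a relative of F11r in the junctional adhesion molecule family, was at 8.67 and 7.14 on the Smarcb1 arrays of lines 365 and 167, against 7.12 and 5.52 on the empty vector arrays. The difference was 1.56 in line 365 and 1.62 in line 167 (limma adjusted p = 0.0865, and 0.0318 with the filter at the 50th percentile). Jam2 did not pass without the filter (adjusted p = 0.0507), after quantile normalization again (0.0570), under cyclic loess (0.0611) or without the intensity trend (0.0825). Cgnl1, which encodes paracingulin, a plaque protein of tight junctions, was higher by 1.7 and 1.22 (limma adjusted p = 0.124). The claudin gene Cldn15, counted among the 3, differed by 0.47 and 0.38, with both empty vector arrays below 4.27. It passed the filter through the Smarcb1 arrays alone, so no test of it is given. The median difference of the 22 was 0.22 in line 365 and 0.0022 in line 167.

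Between the lines, 5 of these 22 genes passed limma's test, where 10.9% of all tested genes did. Higher in line 365 were Jam2 (mean difference 1.56, adjusted p = 0.0148) and the claudin gene Cldn12 (1.68, adjusted p = 0.0120). Lower in line 365 were the tight junction genes Jam3 (-1.06, adjusted p = 0.0366) and Patj (-1.11, adjusted p = 0.04999), which encode a junctional adhesion molecule and a polarity scaffold. The count of 5 also holds the claudin gene Cldn1, at 5.71 and 5.20 on the Smarcb1 and empty vector arrays of line 167. Cldn1 was below 4.27 on both line 365 arrays (4.24 and 4.23). It passed the filter through line 167 alone, so no test of it is given. Without the vector in the model the calls of Jam2 (adjusted p = 0.281), Jam3 (0.0518) and Patj (0.0667) ended, and that of Patj also ended without the intensity trend (0.0575). The junctional adhesion molecule genes therefore did not share a direction between the lines, with F11r and Jam2 higher and Jam3 lower in line 365.

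The 14 adherens junction genes were all tested and 0 passed between the vectors, with 3 at an unadjusted p below 0.05. Vcl, which encodes vinculin, was higher by 0.59 in line 365 and 1.07 in line 167 (limma adjusted p = 0.189), and Ctnna1, which encodes alpha-catenin, by 0.42 and 0.34 (limma adjusted p = 0.336). Cdh2, the N-cadherin gene of mesenchymal and neural cells, stood at 10.7 and 8.90 on the Smarcb1 arrays of lines 365 and 167, against 8.88 and 8.63 on the empty vector arrays, a difference of 1.78 in line 365 and 0.27 in line 167 (limma adjusted p = 0.409). The list median was 0.26 in line 365 and 0.24 in line 167. Between the lines, 1 of the 14 passed as higher in line 365 and 1 as lower, where 10.9% of all tested genes passed in either direction. Afdn, the afadin gene, was higher in line 365 by a mean of 1.01 (limma adjusted p = 0.0274). The beta-catenin gene Ctnnb1 was lower by a mean of 0.57 (limma adjusted p = 0.0388). The Ctnnb1 call ended without the intensity trend (adjusted p = 0.0957) and without the vector in the model (0.0636).

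Of 26 matched epithelial regulators and markers, 16 were tested, 10 lay below 4.27 on all 4 arrays, and 0 passed between the vectors, with 1 at an unadjusted p below 0.05. That gene was Cd24a, a surface glycoprotein of immature and epithelial cells, at 8.83 and 7.0 on the Smarcb1 arrays of lines 365 and 167, against 5.76 and 4.94 on the empty vector arrays. The difference was 3.07 in line 365 and 2.06 in line 167 (limma adjusted p = 0.0865, and 0.0318 with the filter at the 50th percentile). Cd24a also passed without the filter (adjusted p = 0.0492). It did not pass after quantile normalization again (0.0570), under cyclic loess (0.0611) or without the intensity trend (0.103). Muc1, the epithelial membrane antigen, differed by 0.28 and 0.39 (limma adjusted p = 0.458, with the line 365 control below 4.27), and Klf5, a Kruppel-like factor of epithelia, by 0.60 and 0.30 (limma adjusted p = 0.486). Between the lines, 2 of the 16 passed, both higher in line 365, where 10.9% of all tested genes passed in either direction. They were the transcription factor genes Tfap2a (mean difference 1.98, limma adjusted p = 0.0143) and Klf4 (1.12, limma adjusted p = 0.0396). The Klf4 call ended without the vector in the model (adjusted p = 0.0683). The list median was -0.038 in line 365 and 0.061 in line 167.

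**Figure D4:**
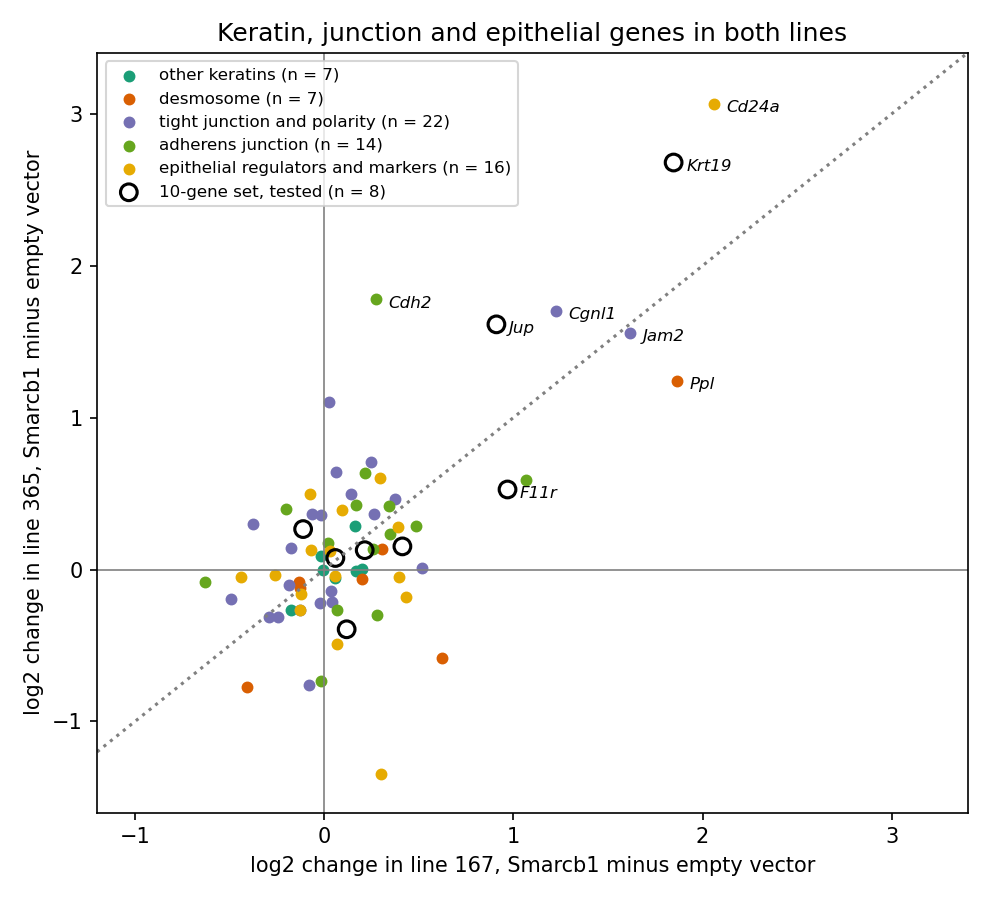
Log2 difference, Smarcb1 minus empty vector, in line 167 (horizontal) and line 365 (vertical) for tested genes of the 5 wider lists, with the 8 tested genes of the set ringed in black and equality dotted. Most genes lie near 0 in both lines, and Cd24a, Krt19, Jam2, Cgnl1, Ppl and Jup lie at the upper right.

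Patterns over the 4 arrays were compared as centred profiles, by Euclidean distance in log2 units, for the genes above the filter level on every array and with a range of 1 or more, which were Krt19 and Jup. Among 13278 candidate genes, the nearest to Krt19 were Cd24a (distance 0.31) and Grem1 (0.56), and Grem1 stood at 7.77 and 6.44 on the Smarcb1 arrays of lines 365 and 167, against 5.72 and 4.91 on the empty vector arrays. The nearest to Jup were Slc9a7 (0.17) and Mertk (0.24), with Mertk at 6.85 and 6.81 on the Smarcb1 arrays and 5.11 and 6.21 on the empty vector arrays. With 4 arrays, close profiles occur readily among so many genes. Within the set, the closest pairs were Cdh1 and Dsp (distance 0.12), Krt8 and Dsp (0.16) and Krt7 and Krt8 (0.19), genes whose signal varied little over the arrays.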

How the data were processed

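The authors deposited log2 probe set signals, summarised by RMA (background correction, quantile normalization between arrays, combination of probes), and the software was Affymetrix Expression Console, both named in the submitters' processing notes. Software versions, genome build and annotation release are not given in these notes. Quantile-normalized signals cannot show a change of total RNA per cell. The platform annotation names 1 gene for 21789 of 35556 probe sets, and for a gene with several probe sets the one with the highest mean was used, while each of the 10 genes has 1. Genes with a mean under the 30th percentile (4.27) were not tested.

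The model in limma 3.58.1 (R 4.3.3, lmFit and eBayes with an intensity trend) had terms for vector and line. P-values are two-sided, with Benjamini-Hochberg adjustment over 13956 genes and a threshold of 0.05. The cell lines pair the arrays (deviations from the vector means correlated at 0.770 within a line). Residual freedom is 1 degree plus 3.75 from the prior, so SEs are moderated across genes. Single-line values and the contrast of the lines' responses have no replicate and are untested. The labels name no repeat cultures, and the number of arrays limits precision. The fit was tested on simulated data.

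The 10 genes, 5 wider lists and 5 marker lists (136 entries, 128 matched, the others not analysed here) were chosen with earlier results of these data known, and Cldn4 is in 2 wider lists. Named genes are the 10, the wider lists' genes past the test, their 3 of smallest p between vectors and 2 between lines, the nearest profiles and the 2 brightest of each marker list. Others, such as Krt15, Krt80 and the remaining markers, were chosen after their values were seen, to complete a count. Promoter windows are RefSeq's (GRCm38.p6). Alternatives were the filter, renormalization, the trend, the mean over probe sets, the model terms and arrays left out.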

Additional observations from a re-analysis of the deposited data

Results flagged for a closer look

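Some genes pointed in opposite directions in the lines between Smarcb1 and empty vector. With 1 array per line and vector, none of these differences between the lines was tested. Among the keratin and junction genes, Krt7 was at -0.080 in line 365 and 0.44 in line 167, Krt18 at -0.39 and 0.12, and Tjp1 at 0.27 and -0.11 on the log2 scale. Krt7 was near background on all arrays. Among the wider lists, Krt14 was at -0.0090 in line 365 and 0.17 in line 167, Jam3 at 0.14 and -0.18, and Patj at 0.30 and -0.38. Afdn was at -0.27 and 0.066, Klf4 at -0.49 and 0.067, and Tfap2a at 0.50 and -0.077. Patj and Jam3 were lower in line 365 under both vectors, and Afdn, Klf4 and Tfap2a higher. These genes were named because they passed the test between the lines, so this pattern follows from how they were chosen.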

How the results depend on the processing

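Between the vectors, limma's test called 9 genes as reported, 68 without the filter, 101 with the filter at the 50th percentile, 48 when arrays were quantile normalized again, 49 under cyclic loess, and 0 without the replicate block of the cell line (450 at an unadjusted p below 0.05). In the 10-gene set it called 1 gene, Krt19, without the filter and at the 50th percentile, and 0 under the other alternatives. Between the lines it called 1528 genes as reported and 653 without the vector term, and in the set 2 genes as reported and 1, F11r, without the intensity trend or the vector term. Taking the mean over probe sets changed no call of a named gene. Each of the 10 genes has 1 probe set, so their own signals could not change in that setting. Signs turned for the Krt18 line difference (0.0090 by quantile normalization, 0.00058 by loess) and the Jam3 vector difference (0.013 and 0.038). Why these values moved was not tested.

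Leaving out a line or a vector leaves 1 pair of arrays and no test, so no counts were made. These values changed sign with the pair used. Between the vectors the ranges were -0.080 to 0.44 (Krt7), -0.39 to 0.12 (Krt18), -0.11 to 0.27 (Tjp1), -0.0090 to 0.17 (Krt14), -0.18 to 0.14 (Jam3), -0.38 to 0.30 (Patj), -0.27 to 0.066 (Afdn), -0.49 to 0.067 (Klf4) and -0.077 to 0.50 (Tfap2a). Between the lines they were -0.077 to 0.44 (Krt7), -0.032 to 0.23 (Krt8), -0.26 to 0.25 (Krt18), -0.12 to 0.00021 (Epcam), -0.040 to 0.083 (Krt5), -0.21 to 0.28 (Vcl), -0.84 to 0.016 (Slc9a7) and -1.10 to 0.043 (Mertk).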
